A study of Mus musculus with 48 samples.

Results

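This report describes how the difference between Yap-cKO and WT mice in sorted CD45+ CD4- CD8- cells depended on the tissue the cells came from. It rests on 16 of the 48 RNA-seq libraries of the series, those labelled CD45, in 4 groups of 4: WT TILs, Yap-cKO TILs, WT TDLNs and Yap-cKO TDLNs. TILs are cells sorted from subcutaneous B16F10 melanomas, a transplanted mouse melanoma line, and TDLNs are the lymph nodes that drain them. The mice were C57BL/6J. Yap-cKO mice carried Yap-loxP/loxP, LSL-EYFP and CD4-Cre, and WT mice were their littermate controls without the deletion. The Cre is driven by the Cd4 promoter, which is active from the double-positive stage of T-cell development, so the deletion was designed for T cells. The cells analysed here were sorted as CD4- CD8-, and any T cells among them that had passed that stage could carry the deletion. The labels number the libraries of a group from 1 to 4 and do not say which tumor and node libraries came from the same mouse, so p-values measure the spread between these libraries.

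CD45, encoded by Ptprc, is carried by nucleated blood cells. The CD4- CD8- part of it holds macrophages, monocytes, dendritic cells, neutrophils, B cells and NK cells, with B cells abundant in lymph nodes and macrophages abundant in melanomas. Yap is a transcriptional co-activator that enters the nucleus when the kinases of the Hippo pathway are inactive, and binds DNA through Tead factors. The question put to the data was whether the genotype difference in the tumor equaled that in the node. For each gene the interaction is the log2 fold change of Yap-cKO against WT in the tumor minus the same fold change in the node, so a positive interaction means a more positive genotype difference in the tumor. It does not by itself say in which tissue the genotypes differed.

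The libraries held between 16311475 and 24213689 gene counts. Ptprc ranged from 201 to 1317 CPM (counts scaled to the depth of each library), Cd4 from 3.19 to 43.0 CPM, Cd8a from 2.72 to 9.45 CPM and Cd3e from 1.197 to 11.3 CPM, so T-cell genes were low but not at 0. Several libraries stood apart. WT TDLN replicate 4 had a summed level of 5105 CPM over 22 macrophage and monocyte markers, against 582 to 1804 CPM in the other WT nodes, and 558 CPM over the fibroblast and pericyte markers, against 30.4 to 51.7 CPM. Along the first principal component of the node libraries, which carried 48.7% of the variance, WT replicate 2 and Yap-cKO replicates 1 and 2 lay on one side and the other 5 on the other. Genes of the Y chromosome were left out of the tests. The summed level of 4 of them was 74.1 to 384 CPM in WT replicates 1 to 3 of both tissues and 2.15 to 10.4 CPM in WT replicate 4 and all Yap-cKO libraries, so genotype and Y-linked expression can be told apart through WT replicate 4 alone.

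No gene passed the test of the interaction. Of 14861 genes, edgeR's quasi-likelihood test called 0 at an adjusted p under 0.05 with an absolute log2 value above 1. The smallest adjusted p was 0.112, for Gpnmb. At an unadjusted p under 0.05 there were 1247 genes, 8.39% of those tested, of which 584 (3.93%) had a positive and 663 (4.46%) a negative interaction. The median interaction over all genes was 0.020 and the median standard error was 0.46, so the interval of a typical gene spanned about a log2 unit to either side. DESeq2 on the same counts called 119 genes, 0.801% of those tested, with 39 (0.262%) higher and 80 (0.538%) lower, and limma-voom with sample quality weights called 3. All 119 had the same sign in edgeR and an unadjusted p under 0.05 there, and none had an adjusted p under 0.05 in edgeR. The tests used the same counts and groups, so the shared sign is no independent support. The genes below are therefore described by their values in each library, and none is called as changed.

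**Figure D1:**
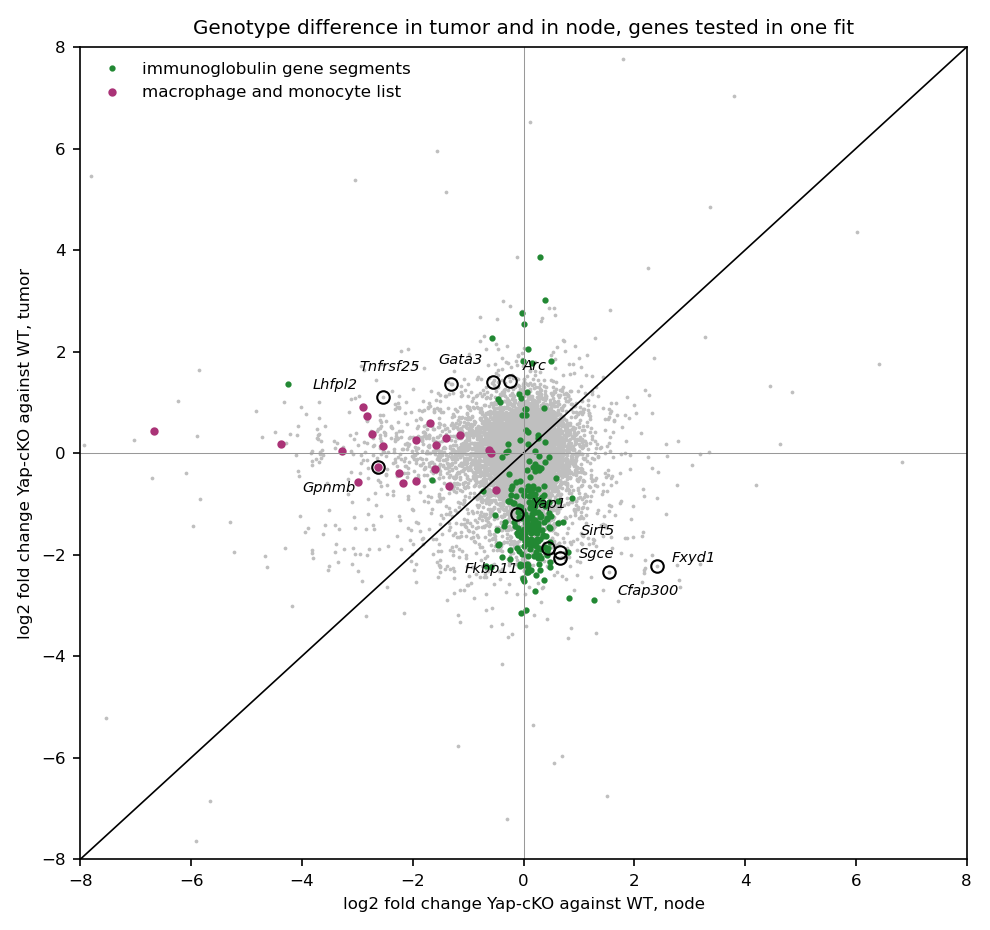
Log2 fold change of Yap-cKO against WT in the node (horizontal axis) and in the tumor (vertical axis) for 14861 genes, with the line of equal fold changes. Points left of and above the line have a positive interaction. Macrophage and monocyte markers (purple) spread to the left, most immunoglobulin gene segments (green) lie below the line, circles mark Yap1 and the 10 leading genes, and 3 genes lie outside the axes.

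Yap1, the targeted gene, lies on chromosome 9 at 7931999 to 8004596 of GRCm38 on the minus strand. Tumor levels of Yap1 were 4.68, 2.43, 3.79 and 3.74 CPM in the WT libraries, against 1.29, 1.68, 1.78 and 1.62 CPM in the Yap-cKO libraries. Node levels of Yap1 were 1.68, 1.93, 1.32 and 2.20 CPM in WT, against 1.52, 1.06, 2.08 and 1.89 CPM in Yap-cKO. The groups did not overlap in the tumor and overlapped in the node. The fold change was -1.196 ± 0.30 (log2 ± SE, n = 4 per group) in the tumor and -0.12 ± 0.30 in the node, and the interaction of -1.07 ± 0.42 did not pass in edgeR (adjusted p = 0.463). The 13 melanoma markers had a summed level of 1015.5 to 1679.5 CPM in WT and 118 to 467 CPM in Yap-cKO tumor libraries. A further fit took the mean level of the melanoma, endothelial and fibroblast markers as a covariate. In it the Yap1 interaction was -0.71 in edgeR, with an unadjusted p of 0.224 in place of 0.0211. Genes at an unadjusted p under 0.05 numbered 704 in that fit, against 1247 without the covariate. Whether melanoma cells account for the Yap1 difference was not tested.

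The 19 genes of the Hippo pathway summed to 538 to 844 CPM in WT and 757 to 960 CPM in Yap-cKO tumors, with overlap. Of these, 17 passed the count filter, with a median fold change of 0.005 in the tumor and 0.005 in the node. Their median interaction was 0.07, against 0.020 over all genes, while 0 were positive and 2 negative at an unadjusted p under 0.05, namely Yap1 and Tead2. Tead2, one of the DNA-binding partners of Yap, measured 3.43, 2.68, 3.37 and 3.53 CPM in WT tumors, against 0.590, 1.30, 1.46 and 1.23 CPM in Yap-cKO tumors. In the node it measured 2.08, 2.43, 2.83 and 1.81 CPM in WT, against 4.11, 1.75, 2.72 and 3.41 CPM in Yap-cKO, where the groups overlapped. Its interaction was -1.88 ± 0.46 (adjusted p = 0.230 in edgeR, 0.0216 in DESeq2). Tead2 is named here after its values were seen, as are the next 4 genes. Wwtr1, which encodes the Yap paralog Taz, was at 6.51 to 11.2 CPM in WT and 0.966 to 3.83 CPM in Yap-cKO tumors, and at most 0.693 CPM in any node library. Ccn1, a textbook target of Yap, was at 8.95 to 20.8 CPM in WT and 0.805 to 7.94 CPM in Yap-cKO tumors. Ccn2, a target of the same kind, was at 4.32 to 12.9 CPM in WT and 0.590 to 2.59 CPM in Yap-cKO tumors. For these 3 genes the tumor groups did not overlap and the node groups did. Over all genes, the tumor groups did not overlap in 11.1%. The melanoma markers were lower in the same Yap-cKO tumor libraries, and whether melanoma cells account for these differences was not tested. The node libraries held 0 to 14 counts of Wwtr1, 0 to 9 of Ccn1 and 0 to 4 of Ccn2, so no fold is given there. The fitted interactions of -0.57 ± 1.14, 0.71 ± 1.12 and -2.04 ± 1.21 (adjusted p of 0.949, 0.924 and 0.718 in edgeR) depend on those counts and are no measure of a difference in the node. Under the marker covariate they were 0.86, 2.20 and -0.91, and that of Tead2 was -1.43. Tead1, at 1 to 10 counts in the nodes, had an interaction of -1.39 ± 0.98 and overlapped in both tissues. The kinase gene Stk4 and its partner Mob1a, the members of the list with the most counts, had interactions of 0.07 ± 0.32 and 0.10 ± 0.33. Their fold changes in the tumor were 0.31 ± 0.23 and 0.42 ± 0.23, and both overlapped there.

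The 5 leading protein-coding genes with a positive interaction, none of which passed in edgeR, were Gpnmb, Gata3, Tnfrsf25, Lhfpl2 and Arc. In Gpnmb and Tnfrsf25 the node groups did not overlap and the tumor groups did, in Gata3 and Arc the reverse held, and in Lhfpl2 neither tissue overlapped. Over all genes, no overlap occurred in 11.1% in the tumor and 1.68% in the node.

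Gpnmb encodes a transmembrane glycoprotein of macrophages and of pigment cells, on chromosome 6 at 49036546 to 49070929. Tumor levels of Gpnmb were 335, 279.8, 235 and 358 CPM in the WT libraries, against 175, 215, 272 and 341 CPM in the Yap-cKO libraries. Node levels of Gpnmb were 2.47, 2.34, 1.44 and 2.77 CPM in WT, against 0.402, 0.323, 0.373 and 0.324 CPM in Yap-cKO. Every Yap-cKO node lay below every WT node, and WT node replicate 4 was not set apart from the other WT nodes for this gene. The counts behind the Yap-cKO node values were 6 to 9 per library, against 36 to 56 in WT. The fold change was -0.27 ± 0.22 in the tumor and -2.64 ± 0.30 in the node, and the interaction was 2.37 ± 0.37 (95% interval 1.58 to 3.15, adjusted p = 0.112 in edgeR, 0.000924 in DESeq2). With the same marker covariate, it was the only gene that edgeR called, at 3.11 with an adjusted p of 0.00318.

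Gata3, a transcription factor of type 2 helper T cells and innate lymphoid cells, lies on chromosome 2 at 9857078 to 9890034. Tumor levels of Gata3 were 2.18, 2.98, 2.49 and 3.80 CPM in the WT libraries, against 8.96, 7.67, 7.61 and 5.82 CPM in the Yap-cKO libraries. Node levels of Gata3 were 3.66, 5.48, 6.43 and 2.66 CPM in WT, against 3.57, 2.77, 3.46 and 2.65 CPM in Yap-cKO. All Yap-cKO tumors lay above all WT tumors, and the node groups overlapped. The interaction was 1.94 ± 0.41 (adjusted p = 0.218 in edgeR, 0.00384 in DESeq2).

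Tnfrsf25, a receptor of the TNF family carried by lymphocytes, lies on chromosome 4 at 152115934 to 152120119. Tumor levels of Tnfrsf25 were 0.544, 0.426, 0.828 and 0.380 CPM in the WT libraries, against 1.77, 0.648, 1.504 and 1.68 CPM in the Yap-cKO libraries. Node levels of Tnfrsf25 were 2.82, 3.10, 3.51 and 1.92 CPM in WT, against 1.56, 1.199, 1.33 and 0.486 CPM in Yap-cKO. The tumor groups overlapped through Yap-cKO replicate 2, and all Yap-cKO nodes lay below all WT nodes. The counts behind the tumor values were 10, 10, 14 and 7 in WT and 33, 12, 33 and 30 in Yap-cKO. Yap-cKO node replicate 4 held 9 counts. The interaction was 2.67 ± 0.58 (adjusted p = 0.218 in edgeR, 0.00713 in DESeq2).

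Lhfpl2, a membrane protein gene of the LHFPL family on chromosome 13 at 94057796 to 94195409, differed in opposite directions. Tumor levels of Lhfpl2 were 41.0, 29.9, 44.3 and 46.2 CPM in the WT libraries, against 123, 69.8, 79.9 and 74.7 CPM in the Yap-cKO libraries. Node levels of Lhfpl2 were 1.04, 0.293, 0.399 and 3.73 CPM in WT, against 0.179, 0.185, 0.266 and 0.270 CPM in Yap-cKO. WT node replicate 4 was the highest node library, and the Yap-cKO node values rest on 4 or 5 counts each. The interaction was 3.64 ± 0.82 (adjusted p = 0.226 in edgeR, 0.00527 in DESeq2) and 2.42 without WT node replicate 4. By CPM, no overlap in either tissue together with opposite directions occurred in 14 of all genes, or 0.0942%, whereas no overlap occurred in 1653 genes (11.1%) in the tumor and 250 genes (1.68%) in the node.

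Arc, an immediate early gene known from neurons and dendritic cells, lies on chromosome 15 at 74669083 to 74672570. Tumor levels of Arc were 4.46, 7.97, 5.27 and 5.32 CPM in the WT libraries, against 18.5, 9.40, 20.7 and 13.4 CPM in the Yap-cKO libraries. Node levels of Arc were 6.09, 3.68, 5.07 and 5.14 CPM in WT, against 4.51, 4.20, 4.58 and 3.57 CPM in Yap-cKO. The tumor groups did not overlap and the node groups did. The interaction was 1.67 ± 0.38 (adjusted p = 0.227 in edgeR, 0.0133 in DESeq2).

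**Figure D2:**
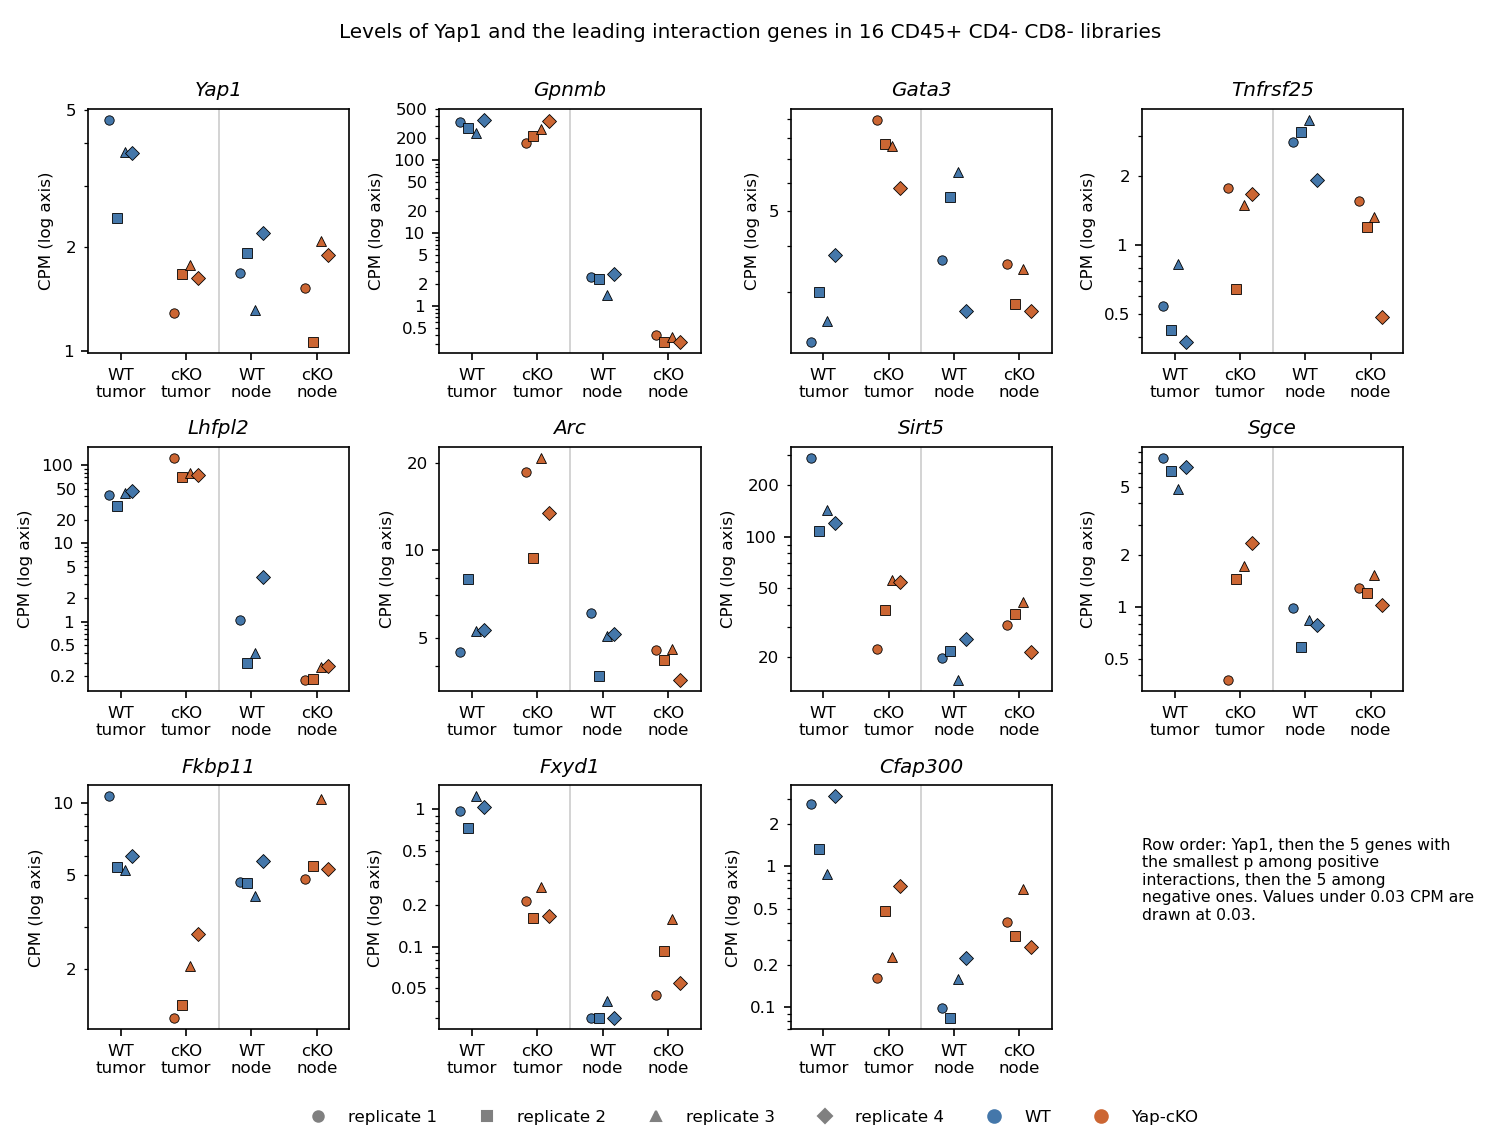
CPM on log axes of Yap1, the 5 leading genes with a positive and the 5 with a negative interaction in each of the 16 libraries, by group, with a symbol for each replicate. In Gpnmb the 4 Yap-cKO node libraries lie between 0.323 and 0.402 CPM, below the WT nodes at 1.44 to 2.77 CPM, while the tumor groups overlap. For the 5 genes with a negative interaction, the Yap-cKO tumor libraries lie below all WT tumor libraries.

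The 5 leading genes with a negative interaction were Sirt5, Sgce, Fkbp11, Fxyd1 and Cfap300, and none passed in edgeR. In all 5 the Yap-cKO tumors lay below the WT tumors without overlap, which was also the case for Yap1. Over all genes, the tumor groups did not overlap, in either direction, in 11.1%. These 5 were picked by the smallest p of an interaction that contains the tumor difference, so their separation there is no separate result. The 13 melanoma markers were lower in the same Yap-cKO tumor libraries. With the marker covariate the interactions of these 5 genes ranged from -4.68 to -1.70, and none passed. The 5 leading genes with a positive interaction ranged from 1.63 to 3.84 in that fit, where only Gpnmb passed. Over all genes, that edgeR fit had 704 at an unadjusted p under 0.05, against 1247 without the covariate. Whether melanoma cells account for these differences was not tested.

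Sirt5, a mitochondrial enzyme that removes succinyl groups from proteins, lies on chromosome 13 at 43365496 to 43395203. Tumor levels of Sirt5 were 287, 108, 144 and 120.4 CPM in the WT libraries, against 22.2, 37.4, 56.0 and 54.8 CPM in the Yap-cKO libraries. Node levels of Sirt5 were 19.6, 21.7, 14.7 and 25.5 CPM in WT, against 30.7, 35.5, 41.8 and 21.3 CPM in Yap-cKO. The node groups overlapped through Yap-cKO replicate 4 and WT replicates 2 and 4. The interaction was -2.62 ± 0.48 (adjusted p = 0.218 in edgeR, 0.000924 in DESeq2), and limma-voom with sample quality weights called it.

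Sgce, which encodes epsilon-sarcoglycan, lies on chromosome 6 at 4674350 to 4747207. Tumor levels of Sgce were 7.35, 6.18, 4.85 and 6.56 CPM in the WT libraries, against 0.376, 1.46, 1.73 and 2.35 CPM in the Yap-cKO libraries. Node levels of Sgce were 0.9896, 0.586, 0.838 and 0.791 CPM in WT, against 1.296, 1.199, 1.54 and 1.03 CPM in Yap-cKO. By CPM neither tissue overlapped, and the directions were opposite. The node counts were 20, 14, 21 and 14 in WT and 29, 26, 29 and 19 in Yap-cKO. These counts overlap, so the gap in the node depends on library scaling. The interaction was -2.73 ± 0.56 (adjusted p = 0.218 in edgeR, 0.00367 in DESeq2).

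Fkbp11, a folding enzyme of the secretory pathway, lies on chromosome 15 at 98724366 to 98728198. Tumor levels of Fkbp11 were 10.7, 5.41, 5.21 and 6.02 CPM in the WT libraries, against 1.23, 1.41, 2.05 and 2.797 CPM in the Yap-cKO libraries. Node levels of Fkbp11 were 4.65, 4.60, 4.07 and 5.71 CPM in WT, against 4.78, 5.44, 10.4 and 5.296 CPM in Yap-cKO. WT tumor replicate 1 and Yap-cKO node replicate 3 were the highest of their groups by a wide gap. The interaction was -2.31 ± 0.48 (adjusted p = 0.218 in edgeR, 0.00453 in DESeq2).

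Fxyd1, a regulator of the sodium pump, lies on chromosome 7 at 31051678 to 31057199. Tumor levels of Fxyd1 were 0.979, 0.724, 1.24 and 1.03 CPM in the WT libraries, against 0.215, 0.162, 0.274 and 0.168 CPM in the Yap-cKO libraries. The Yap-cKO tumor values rest on 4, 3, 6 and 3 counts. In the node no library held more than 3 counts of it, and 3 WT nodes held 0, so no fold is given there. The fitted interaction of -4.63 ± 0.96 (adjusted p = 0.218 in edgeR, 0.0571 in DESeq2) depends on those counts and is no bound.

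Cfap300, a gene of cilium assembly, lies on chromosome 9 at 8021672 to 8042823. Tumor levels of Cfap300 were 2.775, 1.32, 0.888 and 3.15 CPM in the WT libraries, against 0.161, 0.486, 0.228 and 0.727 CPM in the Yap-cKO libraries. The Yap-cKO tumor values rest on 3, 9, 5 and 13 counts. The node libraries held 2, 2, 4 and 4 counts in WT and 9, 7, 13 and 5 counts in Yap-cKO. The directions were opposite without overlap, at counts near the floor in the node and low in the Yap-cKO tumors. The fitted interaction was -3.89 ± 0.81 (adjusted p = 0.218 in edgeR, 0.0118 in DESeq2).

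Macrophage and monocyte markers had a lower level in Yap-cKO than in WT nodes and about the same level in both tumor groups. Their median fold change was -2.05 in the node and 0.10 in the tumor, and their median interaction was 2.03. All 22 were tested, 21 had a positive interaction, and 14 were positive and 0 negative at an unadjusted p under 0.05, beside 3.93% and 4.46% of all genes. WT node replicate 4 carried much of this. The summed levels were 1804, 582, 1569 and 5105 CPM in the 4 WT nodes and 666 to 876 CPM in the Yap-cKO nodes, so WT replicate 2 lay below every Yap-cKO node. Without WT node replicate 4 the median interaction was 0.77 and 4 markers were positive at an unadjusted p under 0.05. In bulk libraries fewer cells of a type and less RNA per cell cannot be told apart, here and for the lists that follow.

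Among single markers, Lyz2, which encodes lysozyme, measured 743, 153, 691 and 2686 CPM in WT nodes, against 96.8, 296, 219.6 and 284 CPM in Yap-cKO nodes. It was at 15910 to 22590 CPM in WT tumors and 9066 to 19950 CPM in Yap-cKO tumors. Its interaction was 1.86 ± 0.81 (adjusted p = 0.534 in edgeR) and 0.85 without WT node replicate 4. Csf1r, the receptor for the growth factor of macrophages and chosen after its values were seen, was at 13.02 to 251 CPM in WT and 13.7 to 31.3 CPM in Yap-cKO nodes. Its interaction was 2.19 ± 0.81 and 1.00 without WT node replicate 4. Apoe, an apolipoprotein of macrophages, had an interaction of -0.24 ± 0.39, the one negative value of the list.

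Chemokines, secreted attractants of leukocytes, had a list median close to that of the macrophage markers. It was the highest of the lists in edgeR and lay below the macrophage median in DESeq2 (1.87 against 2.06), in limma-voom (0.87 against 1.08) and with the marker covariate (2.36 against 2.43). Of 32 genes 26 passed the count filter, and their median fold change was -1.95 in the node and 0.07 in the tumor, with a median interaction of 2.14. In the list 14 genes were positive and 0 negative at an unadjusted p under 0.05. Ccl6 was at 1719 to 4575 CPM in WT and 2105 to 3473 CPM in Yap-cKO tumors, and at 6.03 to 561 CPM in WT and 6.43 to 14.9 CPM in Yap-cKO nodes. Ccl9 was at 846 to 1787 CPM in WT and 1065 to 1487 CPM in Yap-cKO tumors, and at 3.56 to 306.5 CPM in WT and 2.59 to 8.32 CPM in Yap-cKO nodes. Their interactions were 3.62 ± 1.28 and 3.87 ± 1.30 (adjusted p = 0.396 and 0.365 in edgeR), and 0.68 and 0.80 without WT node replicate 4, whose summed chemokine level was 1567 CPM against 136 to 239.9 CPM in the other WT nodes. Without that library the list median was 0.46 and 2 genes were positive, and with the level of Y-linked expression as a covariate it was 1.24 with 3 positive.

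Complement and Fc receptor genes, which serve the uptake of opsonised particles by myeloid cells, followed the same order. Their median interaction was 1.48 over 18 genes, with 7 positive and 0 negative at an unadjusted p under 0.05, and 0.497 with 2 positive without WT node replicate 4. C3ar1, the receptor for the complement fragment C3a and chosen after its values were seen, was at 333 to 456 CPM in WT and 412 to 563 CPM in Yap-cKO tumors. In nodes it was at 0.753 to 36.8 CPM in WT and 0.461 to 0.670 CPM in Yap-cKO, without overlap. WT node replicate 4 held 651 counts of it, against 18 to 27 in the other WT nodes. Its interaction was 4.58 ± 1.30 (adjusted p = 0.291 in edgeR) and 1.31 without that library. Fcer1g and Itgb2, subunits shared by Fc receptors and by integrins, had interactions of 1.097 ± 0.624 and 0.51 ± 0.32 and overlapped in both tissues, and without WT node replicate 4 they were at 0.16 and 0.33. Among fibroblast and pericyte genes, 14 of 17 tested, the median interaction was -0.10. Fn1, which encodes fibronectin and is made by macrophages as well, was at 8.71 to 540 CPM in WT and 5.09 to 18.9 CPM in Yap-cKO nodes, with an interaction of 4.92 ± 1.33 (adjusted p = 0.245 in edgeR, 0.0471 in DESeq2) and 2.28 without WT node replicate 4.

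**Figure D3:**
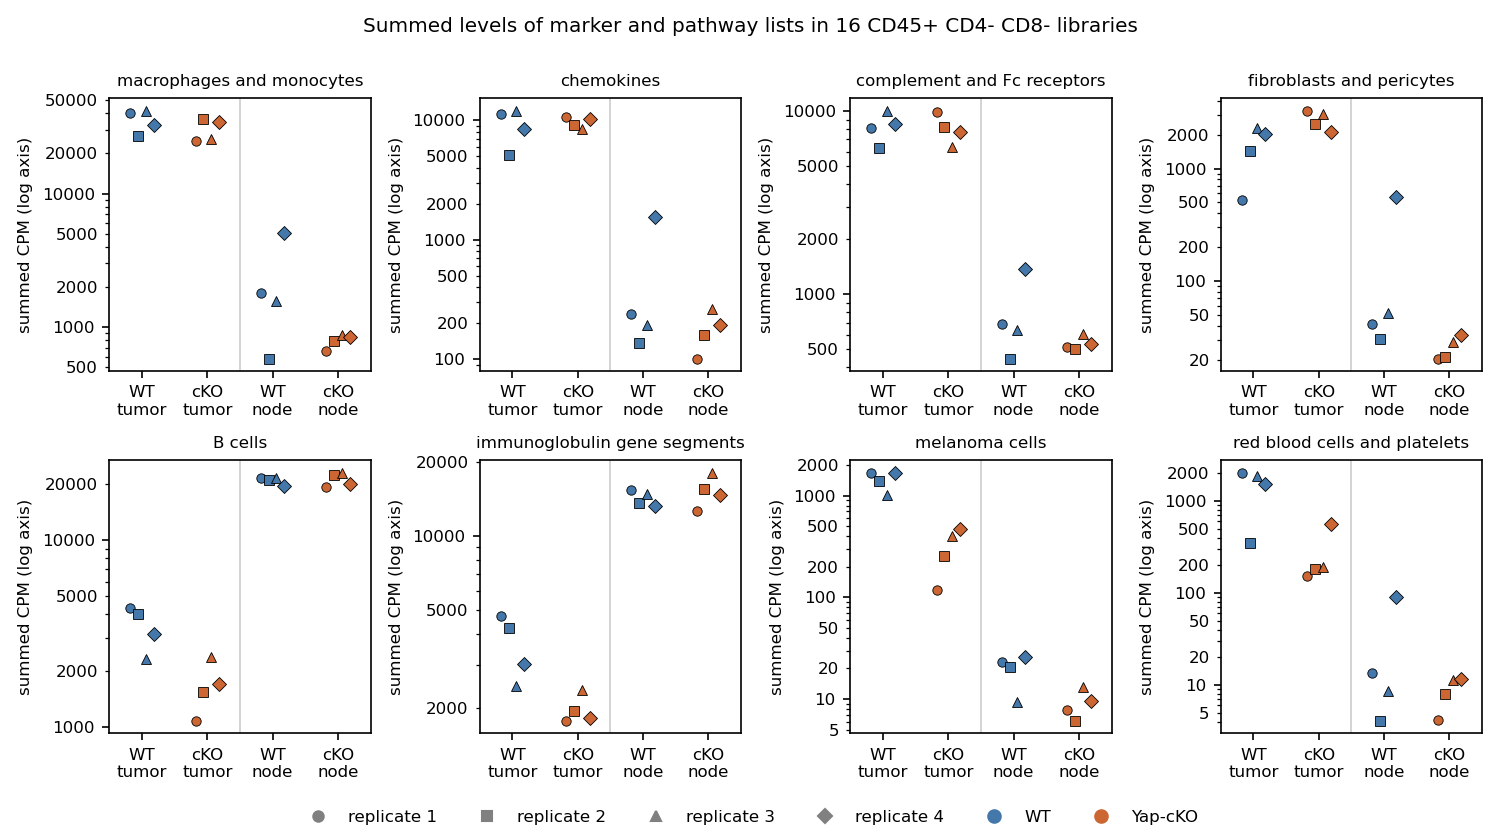
Summed CPM on log axes of 8 gene lists in each of the 16 libraries, by group, with a symbol for each replicate. WT node replicate 4 (blue diamond) is the highest node library for macrophage, chemokine, complement, fibroblast and red blood cell genes, and the Yap-cKO tumors lie below all WT tumors for immunoglobulin segments and melanoma markers.

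B-cell genes had the opposite sign. All 18 had a negative interaction, with a median of -0.97, and 0 were positive and 9 negative at an unadjusted p under 0.05. The difference lay in the tumor, where the median fold change was -0.93, against 0.04 in the node. Cd79a, a signaling subunit of the B-cell receptor, measured 611, 472, 322 and 387 CPM in WT, against 71.4, 159, 257 and 156 CPM in Yap-cKO tumors. In nodes it measured 3800, 2137, 3112 and 3306 CPM in WT, against 2206, 2640, 3637 and 3160 CPM in Yap-cKO. The tumor groups did not overlap and the node groups did. Its interaction was -1.39 ± 0.45 (adjusted p = 0.342 in edgeR). Ighm, the constant region of IgM, was at 777 to 1438 CPM in WT and 560.1 to 747 CPM in Yap-cKO tumors, with an interaction of -0.83 ± 0.30 (adjusted p = 0.410). Summed over the list, the tumor groups spanned 2313 to 4309 CPM in WT and 1079.5 to 2359 CPM in Yap-cKO and overlapped, and the node groups spanned 19350 to 22925 CPM together. With the marker covariate the list median was -0.43 and 0 genes were negative at an unadjusted p under 0.05.

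Immunoglobulin gene segments, a class taken from the gene annotation after the values were seen, showed the same order. Of 222 tested, 194 had a negative interaction, with 4 positive and 120 negative at an unadjusted p under 0.05 and a median of -1.38. They made up 222 of the 14861 genes tested. In DESeq2, which called 0.538% of all genes lower and 0.262% higher, they made up 41 of the 80 lower and 0 of the 39 higher genes. Their summed level was 2461 to 4713 CPM in WT and 1776 to 2359 CPM in Yap-cKO tumors, without overlap, and 12587 to 18064 CPM over all nodes. Iglc2, a lambda light chain constant segment, measured 209, 153.5, 101.4 and 122 CPM in WT, against 37.1, 44.9, 74.7 and 46.8 CPM in Yap-cKO tumors. Its interaction was -1.86 ± 0.42 (adjusted p = 0.226 in edgeR, 0.0144 in DESeq2). Segments share sequence, so reads may be split between them and the values of single segments are uncertain. In the germinal center and plasma cell list, 14 of 15 genes were tested and the median interaction was 0.85. Xbp1, a transcription factor of secretory cells, had an interaction of 0.58 ± 0.27 and Irf4, a regulator of plasma cell fate, -0.06 ± 0.56.

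Melanoma markers, which a CD45 sort should remove, were present in the tumor libraries and lower in Yap-cKO. All 13 were tested, and none was at 0 in all libraries. Their median fold change was -2.27 in the tumor and -0.85 in the node, the median interaction was -1.54, and 0 were positive and 6 negative at that level. Tyr, the tyrosinase gene of pigment synthesis, measured 45.8, 36.8, 28.9 and 44.5 CPM in WT, against 3.70, 6.86, 14.6 and 9.68 CPM in Yap-cKO tumors. It was at 0.495 to 1.13 CPM in all nodes. Its interaction was -2.16 ± 0.53 (adjusted p = 0.230 in edgeR, 0.0306 in DESeq2), and it is named after its values were seen. Dct, another enzyme of pigment synthesis, was at 334 to 593 CPM in WT and 31.8 to 126 CPM in Yap-cKO tumors, with an interaction of -1.74 ± 0.57. Tyrp1, a further one, was lower in Yap-cKO without overlap in both tissues and had an interaction of 0.97 ± 0.88. Over all genes, no overlap occurred in 11.1% in the tumor and 1.68% in the node. The node values of Tyrp1 rest on 81, 97, 31 and 92 counts in WT and 1, 2, 21 and 12 in Yap-cKO. Red blood cell and platelet genes, 9 of 11 tested, had a median interaction of -1.9996, with 2 positive and 2 negative at an unadjusted p under 0.05. The hemoglobin gene Hbb-bt, chosen after its values were seen, was at 13.3 to 98.3 CPM in WT and 3.54 to 21.5 CPM in Yap-cKO tumors, with an interaction of -3.17 ± 0.91. It is a near-identical copy of Hbb-bs, at -2.97 ± 1.24, and reads may be split between them. The platelet factor gene Pf4 had 955 counts in WT node replicate 4 and 0 to 10 in every other node library. Its fitted interaction of 4.53 ± 2.07 rests on that library and turned to -1.67 without it, and it was 0.12 with the Y-linked covariate.

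Immediate early genes, which cells transcribe within minutes of a stimulus, had a median interaction of 1.01 over 22 genes, with 7 positive and 0 negative at an unadjusted p under 0.05. The median fold change was 0.55 in the tumor and -0.26 in the node. Nr4a2, a nuclear receptor of this class named after its values were seen, measured 40.8, 33.0, 83.1 and 25.9 CPM in WT, against 409, 119, 135 and 91.3 CPM in Yap-cKO tumors. In nodes it measured 77.8, 129, 90.5 and 67.7 CPM in WT, against 53.3, 68.9, 52.1 and 91.5 CPM in Yap-cKO. All Yap-cKO tumors lay above all WT tumors, and the node groups overlapped. Its interaction was 2.4995 ± 0.6222 (adjusted p = 0.230 in edgeR, 0.0211 in DESeq2) and 0.93 with the marker covariate. Nr4a1 and Junb, the members with the most counts, had interactions of 1.09 ± 0.53 and 0.76 ± 0.33.

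Of 23 genes of glycolysis and hypoxia, 22 had a positive interaction and 8 were positive and 0 negative at an unadjusted p under 0.05. The list median interaction was 0.37. Vegfa, the angiogenic growth factor and named after its values were seen, measured 71.8, 77.0, 154 and 152.5 CPM in WT, against 308, 343.5, 231 and 189.5 CPM in Yap-cKO tumors. In nodes it measured 18.1, 16.6, 19.1 and 40.2 CPM in WT, against 14.2, 12.6, 9.85 and 20.2 CPM in Yap-cKO, with WT replicate 4 the highest. Its interaction was 1.96 ± 0.48 (adjusted p = 0.230 in edgeR, 0.0223 in DESeq2). Eno1 and Gapdh, enzymes of glycolysis, had interactions of 0.35 ± 0.32 and 0.15 ± 0.38, and 0.17 and -0.07 without WT node replicate 4. With the marker covariate 2 genes of the list were positive. Cell cycle genes, 25 tested, had a median interaction of -0.53 with 0 positive and 4 negative, and a summed level of 763 to 961 CPM in WT and 493 to 639 CPM in Yap-cKO tumors. Under the marker covariate that median was -0.12 with 0 positive and 2 negative. Without the 3 node libraries set apart by the first component, that median was 0.034 and 4 genes were positive and 0 negative. Pcna and Mcm2, which serve DNA replication, had interactions of -0.59 ± 0.28 and -0.11 ± 0.33.

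**Figure D4:**
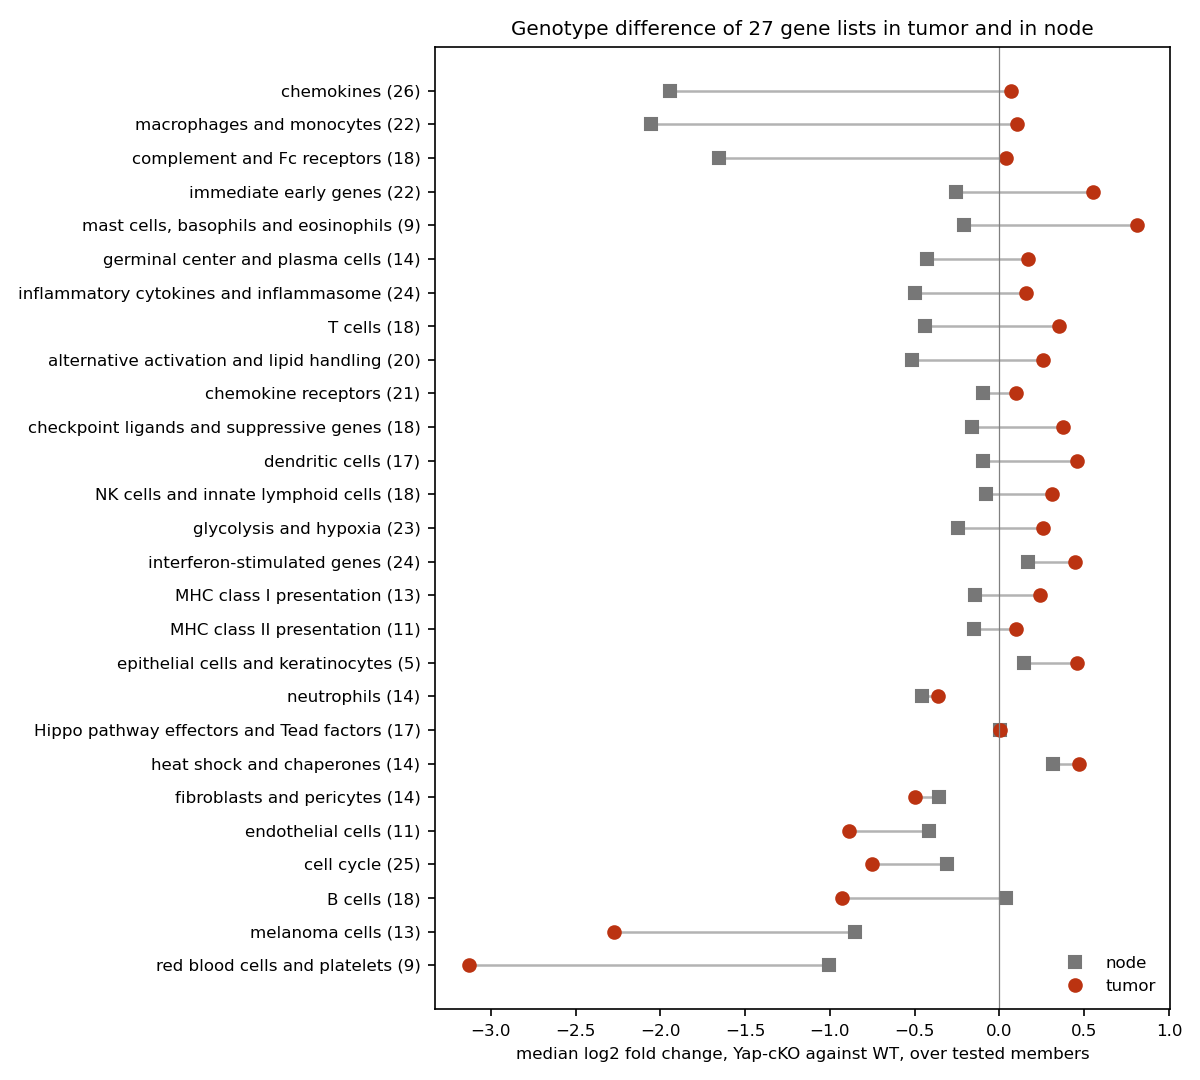
Median log2 fold change of Yap-cKO against WT over the tested members (number in brackets) of each of 27 gene lists, in the node (squares) and the tumor (circles), ordered by the median interaction. Chemokines (-1.95 in the node) and macrophage markers (-2.05) differ mainly in the node, and B-cell (-0.93 in the tumor) and melanoma genes (-2.27) mainly in the tumor.

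The lymphoid lists other than B cells differed less. NK cell and innate lymphoid genes, 18 tested, had a median interaction of 0.40 with 2 positive and 0 negative at an unadjusted p under 0.05, and summed to 693 to 887 CPM in WT and 979 to 1166 CPM in Yap-cKO tumors without overlap. That median turned to -0.06 without the 3 node libraries set apart by the first component, with 4 genes positive and 1 negative. In the 10 libraries without Y-linked expression, which hold 1 WT library per tissue, it was -0.20. Il2rb, a receptor subunit for interleukins 2 and 15, was at 78.0 to 197 CPM in WT and 199 to 442 CPM in Yap-cKO tumors, with an interaction of 1.49 ± 0.50 (adjusted p = 0.366). Gzma, a granule protease, had an interaction of -0.20 ± 0.41. T-cell genes, 18 of 19 tested, had a median interaction of 0.73 with 2 positive and 0 negative, and 14 positive in limma-voom. Foxp3, the transcription factor of regulatory T cells and chosen after its values were seen, was at 0.163 to 0.828 CPM in WT and 1.19 to 1.73 CPM in Yap-cKO tumors, and at 0.247 to 1.68 CPM in WT and at most 0.266 CPM in Yap-cKO nodes. Its interaction was 4.31 ± 1.102 (adjusted p = 0.230 in edgeR, 0.0211 in DESeq2). The counts behind the node values were 5, 12, 42 and 5 in WT and 0, 4, 5 and 0 in Yap-cKO, so WT replicate 3 carried much of the WT node level. The T-cell genes summed to 60.1 to 174 CPM in all 16 libraries.

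Antigen presentation and interferon response were covered by 3 lists. In the lists of MHC class I presentation (13 genes), MHC class II presentation (11 genes) and interferon-stimulated genes (24 genes), at an unadjusted p under 0.05 no gene was positive (0) or negative (0). Their median interactions were 0.31, 0.26 and 0.35. The interferon median depended on the libraries, at 0.93 with 5 genes positive without the 3 node libraries set apart by the first component and at -0.43 with 5 negative in the libraries without Y-linked expression. Cd74, the invariant chain of MHC class II, had an interaction of 0.53 ± 0.35 and H2-Ab1, a class II chain, 0.61 ± 0.41. H2-D1 and H2-K1, class I heavy chains, were at 0.42 ± 0.33 and 0.23 ± 0.31. Irf7, a regulator of the interferon response, was at 0.896 ± 0.563, and at 0.33 without Yap-cKO tumor replicate 1. Dendritic cell genes, 17 tested, had a median of 0.56 with 1 positive and 0 negative. Ccr7, the receptor that guides dendritic cells to nodes, was at 0.21 ± 0.35 and Wdfy4, a gene of cross-presentation, at 0.71 ± 0.77.

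The other myeloid lists had positive medians in edgeR, several of which depended on WT node replicate 4. Without that library the medians were -0.18 for chemokine receptors, -0.12 for neutrophil genes and 0.23, with 2 genes positive, for inflammatory cytokines. The mast cell, basophil and eosinophil median was -0.31 in limma-voom and -0.36 with the marker covariate. Inflammatory cytokine genes, 24 tested, had a median of 0.81 with 5 positive and 1 negative at an unadjusted p under 0.05, and their members Il1b and Il1rn were at 1.14 ± 0.65 and 1.74 ± 0.79, with Il1b at 0.65 without WT node replicate 4. Genes of alternative activation and lipid handling, 20 tested, had a median of 0.68 with 4 positive and 0 negative, and the interleukin 4 receptor gene Il4ra was at 0.43 ± 0.44. Chemokine receptors, 21 tested, had a median of 0.63 with 3 positive and 1 negative, and Ccr2, the receptor of inflammatory monocytes, was at 1.51 ± 0.67 and at 0.83 without that library. Checkpoint ligands and suppressive genes, 18 tested, had a median of 0.58 with 2 positive and 0 negative. In that list Sirpa, a myeloid inhibitory receptor, was at 1.55 ± 0.65, or 0.62 without that library, and its ligand Cd47 at -0.03 ± 0.25. Neutrophil genes, 14 of 16 tested, had a median of 0.11 with 2 positive and 0 negative, and S100a8 and S100a9, alarmins of neutrophils, were at -0.28 ± 1.30 and -0.22 ± 1.25, which the libraries do not resolve. Mast cell, basophil and eosinophil genes, 9 of 13 tested, had a median of 0.93 with 2 positive and 0 negative, and the growth factor receptor Kit was at 1.265 ± 0.647 and the mast cell protease gene Cma1 at -0.22 ± 0.84.

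The remaining lists held endothelial genes (11 of 14 tested, median -0.43, with Pecam1 at -0.08 ± 0.37 and Kdr at 0.52 ± 0.98), epithelial genes (5 of 12 tested, median 0.14, with Cdh1 at 1.27 ± 0.82 and Epcam at -0.39 ± 0.54) and chaperones (14 tested, median 0.006, with Hspa8 at -0.05 ± 0.47 and Hspa5 at 0.48 ± 0.40). Endothelial genes had 0 positive and 1 negative at an unadjusted p under 0.05, epithelial genes 1 and 0, and chaperones 2 and 0. Sparc, a matrix gene of fibroblasts, was at -0.34 ± 0.70. With the marker covariate the medians of fibroblast, epithelial and chaperone genes turned to 0.31, -0.16 and -0.56, and without WT node replicate 4 Cdh1 was at 0.74. The fibroblast genes are part of that covariate, so the change of their median under it is partly built in.

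Ribosomal protein genes and the genes of the mitochondrial genome, were classes taken from the annotation after the values were seen. Of 78 ribosomal protein genes 77 had a negative interaction, with 0 positive and 27 negative at an unadjusted p under 0.05 and a median of -0.74. All 13 mitochondrial genes were negative, with 5 at an unadjusted p under 0.05 and a median of -1.03. These counts moved with single libraries. The negative ribosomal genes numbered 8 without WT node replicate 2 (median -0.49), 48 without WT node replicate 4 and 3 with the marker covariate, and the negative mitochondrial genes numbered 10 without WT node replicate 2 and 1 with the marker covariate. In the 10 libraries without Y-linked expression, which hold 1 WT library per tissue, the ribosomal median was -0.07 and the mitochondrial median -0.46. Of the mitochondrial genes mt-Nd3, a subunit of respiratory complex I, measured 3.12, 6.82, 5.51 and 28.9 CPM in WT nodes, against 21.9, 29.9, 30.5 and 41.1 CPM in Yap-cKO nodes. WT node replicate 4 lay within the range of the Yap-cKO nodes, and the other WT nodes lay below it. The interaction was -1.95 ± 0.70 (adjusted p = 0.405 in edgeR), and -3.05 with an adjusted p of 0.0258 without WT node replicate 4. The pseudogene Gm28438 had 21.2, 37.3, 24.0 and 81.8 CPM in WT nodes, against 78.0, 85.9, 96.1 and 101.8 CPM in Yap-cKO nodes, with an interaction of -1.98 ± 0.47 (adjusted p = 0.230), and -2.56 with an adjusted p of 0.0133 without that library. Both were chosen after their values were seen. Since reads of a pseudogene can belong to another gene, mt-Nd3 and Gm28438 may not be separate results. Whether they share reads was not tested.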

How the data were processed

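The 16 libraries labelled CD45 were used and the 32 T-cell libraries of the series were not used here. Cells were sorted as live CD45+ CD4- CD8-, and cDNA made with SMART-Seq v4, an amplified kit without molecular identifiers or strand marking, was sequenced in paired ends. Per the labels and the submitters' processing notes, the authors used FastQC, Trimmomatic and Salmon 0.9.1 with mm10 (GRCm38) and deposited for each library estimated counts and TPM of 112092 transcripts. The deposited TPM values were not used. The authors' own gene-level import and DESeq2 tests were not used.

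Transcripts were assigned to GENCODE M21 genes by identifier (111787 matched), expected counts were summed over 34932 genes and rounded, and 728 genes of chromosome Y were left out. Between 0.0488% and 0.096% of a library's counts had no gene. Depth was 16311475 to 24213689 counts per library, and 3 counts corresponded to 0.124 to 0.184 CPM, which covers counting error only. Genes that reached 10 counts in 4 or more libraries were tested in edgeR 4.0.16 (R 4.3.3) with TMM factors, which also scale every CPM value, a mean per group and glmQLFTest, two-sided, with Benjamini-Hochberg adjustment over 14861 genes. Values are log2 ± SE, and SE is the fold change divided by the root of F.

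Alternatives were DESeq2 1.42.0, limma 3.58.1, other scaling, filters, length offsets, covariates, blocks and left-out libraries. The script was tested on simulated counts. Of 24 pairs of libraries within a group, 0 held identical counts. Named are Yap1, the 5 named protein-coding genes with the smallest p per direction, the 2 members with the highest mean CPM of each of 27 lists (464 genes), and the sort markers, except a gene that is not reported here. The members and lists were chosen with earlier results of these data known, and further genes are said to be chosen after their values were seen.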

Additional observations from a re-analysis of the deposited data

Results flagged for a closer look

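Some values stood far from the other 3 libraries of their group, by a gap that, over the group's range, passed Dixon's 95% critical value. Among 152 groups of 4 examined there were 11, and chance gives about 1 in 20. For single genes these were Fkbp11 in WT tumor replicate 1 at 10.7 CPM (others 5.21 to 6.02) and in Yap-cKO node replicate 3 at 10.4 CPM (others 4.78 to 5.44), and Fxyd1 in WT node replicate 3 at 0.0399 CPM, a single count where the other 3 held 0. Of summed levels, WT node replicate 4 gave 4: fibroblast and pericyte markers at 558 CPM (others 30.4 to 51.7), chemokines at 1567 CPM (others 136 to 239.9), red blood cell and platelet genes at 89.9 CPM (others 4.10 to 13.6) and NK cell and innate lymphoid genes at 311 CPM (others 471 to 489). Yap-cKO tumor replicate 1 had NK cell and innate lymphoid genes at 1166 CPM (others 979 to 998.5) and endothelial genes at 156 CPM (others 108 to 115). Yap-cKO tumor replicate 4 had red blood cell and platelet genes at 566 CPM (others 153 to 193), and WT tumor replicate 4 had interferon-stimulated genes at 3653 CPM (others 1329 to 1527).

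In 4 of the leading genes the CPM of the genotypes did not overlap in either tissue and lay in opposite directions, with interactions of 3.64 for Lhfpl2, -2.73 for Sgce, -4.63 for Fxyd1 and -3.89 for Cfap300. For Fxyd1 the node part of this has no weight, since WT node replicate 3 and Yap-cKO node replicates 1 and 4 each held 1 count and are separated by library scaling alone. The node part is weak for the others too. The nearest node libraries of WT and Yap-cKO held 4 and 5 counts of Cfap300, and 7 and 5 of Lhfpl2. Sgce overlapped in node counts, with 21 in WT replicate 3 and 19 in Yap-cKO replicate 4. The interaction itself was tested for each and did not pass in edgeR (adjusted p 0.226 for Lhfpl2 and 0.218 for the other 3). They were chosen among the genes with the smallest p, and 0.0942% of all genes showed such a pattern.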

How the results depend on the processing

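The count of called genes stayed at 0 in edgeR with RLE factors, filterByExpr, transcript length offsets, an adjusted p alone and a Y-linked covariate, with 1218 to 1248 genes at an unadjusted p under 0.05. DESeq2 called 119 (39 higher, 80 lower). Without a count filter there were 2 (1 higher, Gpnmb, and 1 lower, Sirt5), limma-voom with quality weights called 3 (0 higher, 3 lower: Gm28438, Gm48368 and Sirt5), and the marker covariate left 1 (1 higher, Gpnmb) with 704 genes at an unadjusted p under 0.05. Without the 3 node libraries set apart by the first component, an alternative chosen after seeing the data, there was 1 (1 higher, Apol7c, at an adjusted p of 0.0423). In the 10 libraries without Y-linked expression, with 1 WT library per tissue that is assumed to vary like the other groups, there were 128 (127 higher, 1 lower). That WT node library is replicate 4, with the highest macrophage level. Leaving out 1 library, or a genotype and number in both tissues, gave 0 to 2 genes (0 to 1 higher, 0 to 2 lower). Gpnmb was called without Yap-cKO tumor replicate 1 or WT node replicate 3, and Gm28438 and mt-Nd3 without WT node replicate 4 or WT replicate 4 in both tissues. The cause of these differences was not tested.

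Same-numbered libraries did not deviate together: correlations of their deviations from the group means ran from -0.458 to 0.559, 3 of 16 pairs were over 0.1, and 2 libraries correlated best with their own number. A fit with the replicate block called 0 genes (1097 at an unadjusted p under 0.05), and so did a block by genotype and number (1069). Under the replicate block the interaction was 2.35 for Gpnmb and -2.58 for Sirt5, with adjusted p of 0.192 and 0.367.

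Of 84 genes given with an interaction or checked for the sort, 57 kept their sign under every alternative that tested them, Yap1 (-1.35 to -0.71) and the 10 leading genes among them. The other 27 turned in 138 of all 3014 values, 0 of them with an adjusted p under 0.05, and each is given with its log2 interaction under that alternative. Without a count filter the sign turned for Hspa8 0.028 and Cd47 0.040. With transcript length offsets the sign turned for Stk4 -0.063. In limma-voom with quality weights the sign turned for Mob1a -0.056, Stk4 -0.055, Apoe 0.20, Gzma 0.20, Cd4 -0.087, Pf4 -0.58, Mcm2 0.018, Hspa8 0.18, Ptprc -0.44 and Cd8b1 0.30. With the replicate block the sign turned for Irf4 0.061. In libraries without Y-linked expression the sign turned for Mob1a -0.50, Stk4 -0.40, Apoe 0.41, Irf4 0.56, Il4ra -0.10, Hspa5 -0.040, Cd47 0.069, Ptprc -0.88, Cd8b1 1.598, mt-Nd3 0.11 and Ccn1 -1.48. With the marker covariate the sign turned for Mob1a -0.014, S100a8 0.30, S100a9 0.36, Wdfy4 -0.012, Irf4 0.44, Sparc 0.43, Irf7 -0.43, H2-K1 -0.050, Il4ra -0.023, Hspa5 -0.011 and Wwtr1 0.86. Sparc is itself part of that covariate. Without the 3 node libraries set apart the sign turned for S100a8 0.57, S100a9 0.72, Hspa8 0.35, Cd47 0.011, Cd8b1 0.16 and Ccn1 -0.86. With libraries left out, the lowest and highest values lay on both sides of 0 for Mob1a (-0.07465 to 0.28), Stk4 (-0.11 to 0.23), Apoe (-0.43 to 0.063), S100a8 (-0.94 to 0.78), S100a9 (-0.94 to 0.88), Irf4 (-0.36 to 0.21), Gzma (-0.45 to 0.36), Cd4 (-0.28 to 1.17), Cma1 (-1.57 to 0.54), Pecam1 (-0.30 to 0.11), Sparc (-0.99 to 0.045), Pf4 (-1.87 to 5.35), H2-K1 (-0.0031 to 0.47), Gapdh (-0.072 to 0.45), Mcm2 (-0.33 to 0.15), Hspa8 (-0.30 to 0.37), Cd47 (-0.23 to 0.18), Ptprc (-0.73 to 0.67), Cd8a (-0.012 to 0.75), Cd8b1 (-0.56 to 0.25), Wwtr1 (-1.47 to 0.57) and Ccn1 (-0.28 to 3.21). Low counts limit the node values of Gpnmb, Lhfpl2, Sgce, Fxyd1, Cfap300, Foxp3, Ccn1, Ccn2, Wwtr1, Tead1, Tyr, Tyrp1 and Hbb-bs. Outside WT node replicate 4 the same holds for Pf4. Low counts also limit tumor values, among them those of Tnfrsf25, of Fxyd1 and Cfap300 in Yap-cKO, and of Foxp3 in WT.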

Other observations

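Outside the lists, the genes that DESeq2 called included Nr1h3, the liver X receptor of lipid handling in macrophages, chosen after its values were seen. It measured 2.62, 0.795, 1.84 and 3.39 CPM in WT nodes, against 0.715, 0.554, 0.959 and 0.703 CPM in Yap-cKO nodes, and in tumors 23.5, 25.2, 31.1 and 34.4 CPM in WT, against 48.2, 43.5, 44.5 and 27.4 CPM in Yap-cKO. Both tissues overlapped through 1 library, WT node replicate 2 and Yap-cKO tumor replicate 4. Its interaction was 2.06 ± 0.48 (adjusted p = 0.227 in edgeR, 0.0167 in DESeq2). The processed pseudogene Gm48368, also chosen after its values were seen, was at 26.7 to 51.3 CPM in WT and 6.17 to 17.7 CPM in Yap-cKO tumors, and at 5.35 to 10.6 CPM in WT and 14.7 to 27.6 CPM in Yap-cKO nodes. The groups did not overlap in either tissue, in opposite directions, and the interaction was -2.50 ± 0.47 (adjusted p = 0.218 in edgeR, 0.000993 in DESeq2). Reads of a pseudogene can belong to its parent gene.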
